A study of Mus musculus with 6 samples.

Results

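The 46 genes described here encode the digestive enzymes of the lysosome and the proteins that surround and regulate them. They comprise 10 cysteine cathepsins, 3 aspartic or serine cathepsins, 2 other proteases, 9 glycosidases, 8 proteins of lipid handling, 2 phosphatases, 9 membrane proteins and the 3 transcription factors of the TFEB family. The members were taken from a list of gene symbols and found by symbol, and each of the 46 was among the 22134 genes of the deposited table. RNA was sequenced from adipose tissue of wild-type (WT) mice, 3 times as creeping fat after repeated colonic cautery injury and 3 times as uninjured, healthy mesenteric fat, called control here. Creeping fat is the mesenteric fat that grows over an injured bowel. The labels name no strain, sex, age or time after injury. They do not tie samples to animals either, so the spread behind each p-value is that between samples and may be technical.

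Lysosomes are acidified by a proton pump, the V-type ATPase, and hold hydrolases that break down proteins, glycans and lipids taken up from outside the cell or delivered by autophagy. Cathepsins are the main lysosomal proteases, and some are also secreted and cleave matrix proteins such as collagen and elastin. Macrophages are rich in lysosomes, and those of adipose tissue use them to degrade the lipid of dying adipocytes. TFEB and its relatives TFE3 and MITF bind an E-box element in the promoters of many lysosomal genes and raise their transcription together.

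Values are FPKM, sequenced fragments scaled to gene length and library depth, so levels can be compared between genes. Values of single libraries are given in the order of libraries 1, 2 and 3 of a group. Whole reads could be recovered from the FPKM of all 18714 genes above 0, and the recovered reads in the table's genes numbered 35885611, 34675513 and 32586566 for creeping fat and 38578633, 30937155 and 43074659 for control. In a gene of 1 kilobase, 3 reads correspond to between 0.0696 and 0.097 FPKM, a floor for counting error alone. The members had from 45 reads (Ctse) to 122540 reads (Psap) in a library, and 44 of the 46 had at least 100 reads in every library. A fold change is given as creeping fat minus control on the log2(FPKM + 1) scale, with limma's moderated standard error. The added 1 shrinks the fold change of genes with few fragments. A gene was called, or said to rise or fall, at a Benjamini-Hochberg adjusted p under 0.05 over 12812 genes that reached 1 FPKM in 3 or more libraries, and all 46 members were among them.

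Creeping fat 2 and control 2 lay nearer to the other group on the first principal component, which held 66.7% of the variance. Seminal vesicle transcripts were present in all 3 creeping fat libraries (8 of 9 listed markers in the table, summed level 15958 to 30922 FPKM in creeping fat and 0.171 to 53.5 FPKM in control). Pancreatic acinar transcripts (14 markers) summed to 13.3 to 4908 FPKM in creeping fat, with the highest value in creeping fat 2, and to 15053 to 37432 FPKM in control. The part of these transcripts in the values of the lysosomal genes was not tested, beyond rescaling each library to its total without them, where 21 members rose, 20 of them as before, with Lamp2 called in place of Asah1, and 1 fell.

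Of the members 39 had a promoter window in RefSeq (GRCm38.p6, the assembly also called mm10), 250 bases before to 50 bases after an annotated start. No window was found for Ctsb, Ctsh, Ctsw, Ctse, Npc1, Asah1 and Atp6v0d2. These windows were searched for CACGTG, the E-box that the TFEB family binds, and for TCACGTGA, the same box with its flanking bases. Both motifs read the same on both strands, and the longer motif holds the shorter. The E-box was found in the windows of 12 of the 39 members (30.8%) and in those of 8.09% of all 27025 genes with a window. The longer motif was found in 5 members (Ctsa, Ctsd, Gla, Mcoln1 and Atp6v1a), or 12.8%, against 1.12% of all genes with a window. The box is shown in 4 of these 5 and in Glb1, which rose under every setting tried. The 4 were shown for the longer motif, whether or not they rose, and Glb1, with the shorter motif, was chosen with its rise known. Ctsa, which also holds the longer motif and rose, is not shown. Each stretch shown is written 5′ to 3′ on the strand of the gene, ends before an annotated start, and has the motif in capitals. The Atp6v1a stretch precedes a start that lies inside the span of that gene (44085402 to 44139702). The other stretches lie outside their genes. The Mcoln1 stretch holds another E-box near its 5′ end, in lower case.
Ctsd: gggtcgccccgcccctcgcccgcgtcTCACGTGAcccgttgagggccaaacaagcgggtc
Gla: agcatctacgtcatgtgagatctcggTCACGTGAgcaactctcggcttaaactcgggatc
Mcoln1: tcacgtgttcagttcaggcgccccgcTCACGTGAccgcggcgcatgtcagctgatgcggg
Atp6v1a: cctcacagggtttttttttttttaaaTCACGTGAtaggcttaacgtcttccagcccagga
Glb1: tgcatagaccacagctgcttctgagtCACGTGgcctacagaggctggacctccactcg
They lie at chr7:142387893-142387952 (minus strand) for Ctsd, chrX:134601167-134601226 (minus strand) for Gla, chr8:3500447-3500506 (plus strand) for Mcoln1, chr16:44139358-44139417 (minus strand) for Atp6v1a and chr9:114401004-114401061 (plus strand) for Glb1. Of the 12 members with the E-box in a window, 7 rose in creeping fat. Of the 27 with a window and no E-box in it, 9 rose, where 9.35% of all genes tested rose. Calls among all genes with and without the box were not counted, and a link between box and rise was not tested. Of the 5 with the longer motif, Ctsa and Gla rose, and Ctsd, Mcoln1 and Atp6v1a did not pass the test. A match is a stretch of letters and not evidence of binding.

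Of the 46 members 21 rose in creeping fat, 1 fell (Acp5) and 24 did not pass. The share that rose was 45.7%, where 9.35% of all genes tested rose, and the share that fell was 2.17%, where 6.81% of all genes tested fell. The median fold change of the members was 0.73 on the log2 scale, against 0.02 over all genes tested. The 3 creeping fat libraries lay above the 3 controls in 29 members, where 20.2% of all genes tested did so, and below them in 1 member (16.9% of all genes tested). Summed over the members the level was 5921, 4532 and 6185 FPKM in creeping fat, against 3162, 4107 and 3355 FPKM in control. The groups did not overlap in this sum, but creeping fat 2 and control 2 came close to each other. The lowest creeping fat value of a member was in creeping fat 2 for 37 of the 46 (39.3% of all genes tested), and the highest control value in control 2 for 30 of the 46 (57.8% of all genes tested).

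**Figure D1:**
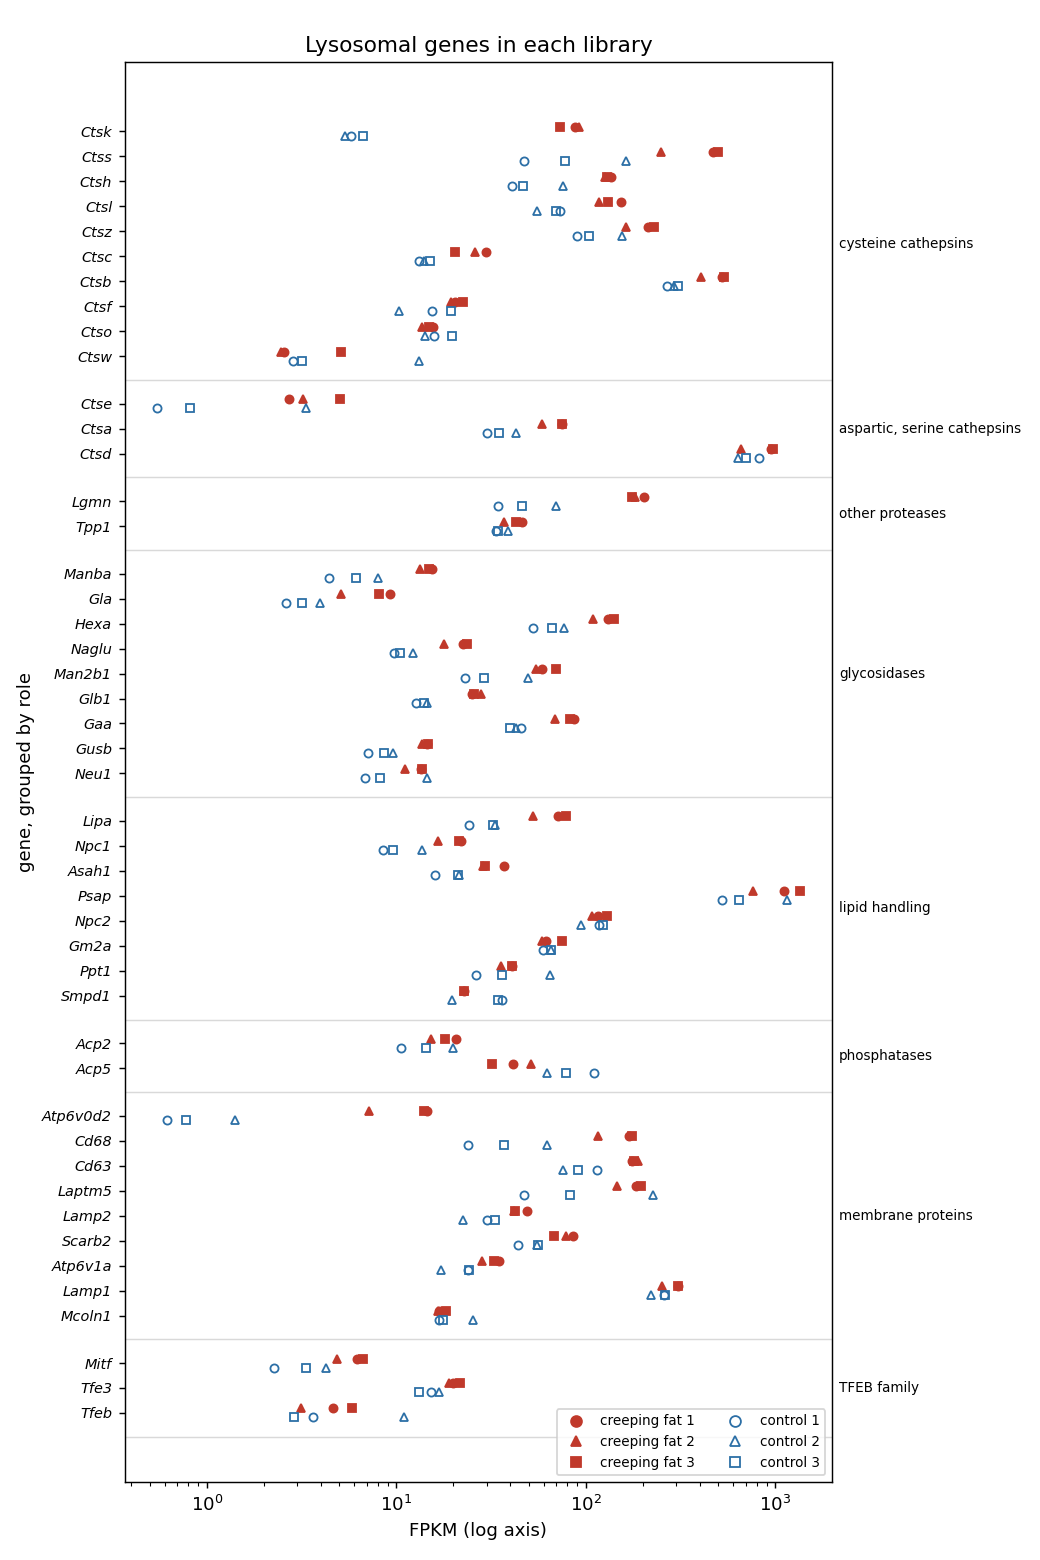
FPKM of each of the 46 lysosomal genes in each library (log axis), grouped by role and ordered by fold change within a role, with creeping fat as filled red symbols above control as open blue symbols. The 3 creeping fat libraries lie above the 3 controls in 29 genes and below them in Acp5.

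**Figure D2:**
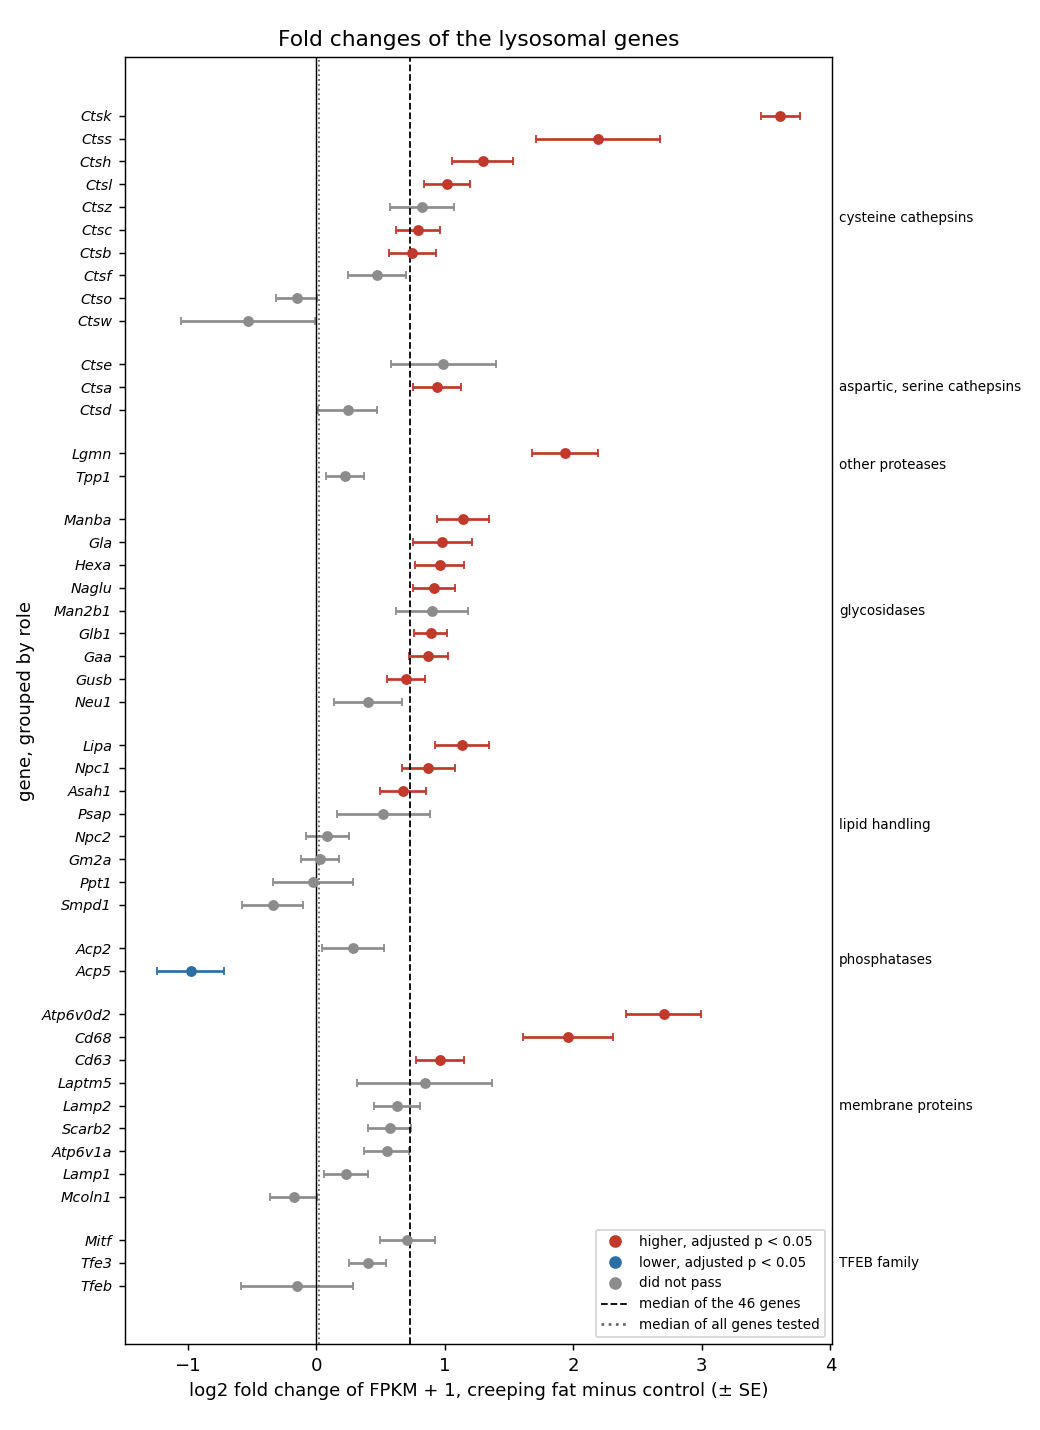
Fold change of each gene on the log2(FPKM + 1) scale, creeping fat minus control, with limma's moderated standard error (n = 3 each), coloured by its call. The dashed line is the median of the 46 genes at 0.73 and the dotted line that of all genes tested at 0.02.

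The number of members called moved with the libraries in the fit. Of the 46, 4 rose without creeping fat 1, 15 without creeping fat 2, 5 without creeping fat 3, 13 without control 1, 31 without control 2 and 6 without control 3. The count over all genes tested moved in the same direction each time, with 576, 700, 639, 784, 2896 and 626 genes higher in the same order, against 1198 with all libraries. With both creeping fat 2 and control 2 left out 33 rose and 2 fell. The median of all genes tested was itself 0.13 without control 2, so fold changes without that library carry this shift. Acp5 fell without control 2, as did Smpd1, and was not called with any other single library left out. Ctsk, Lgmn, Glb1 and Atp6v0d2 rose under each of the 19 other settings, and no called member changed its sign under any of them. The median fold change stayed between 0.64 (without control 1) and 0.80 (without control 2) with 1 library left out. The spread within groups was wider in control, with a median coefficient of variation over the members of 12.7% in creeping fat and 20.9% in control.

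**Figure D3:**
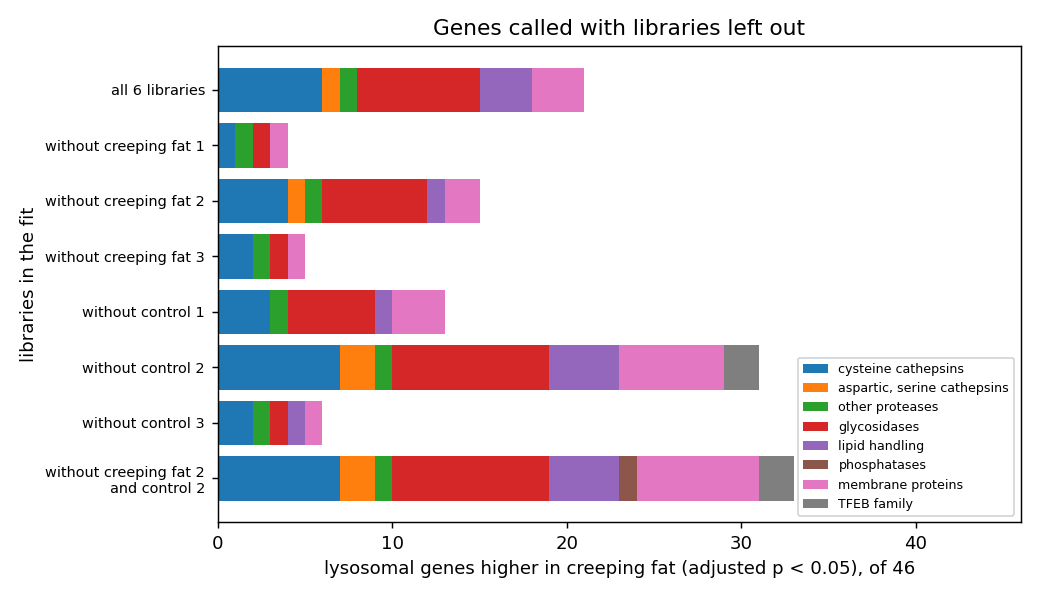
Number of the 46 genes higher in creeping fat at an adjusted p under 0.05, by role, with all 6 libraries and with libraries left out. The count lies between 4 (without creeping fat 1) and 31 (without control 2) with 1 library left out, and is 33 with creeping fat 2 and control 2 left out.

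The summed level of macrophage markers moved with that of the members. Of 12 macrophage markers 8 rose and 4 did not pass, and none was at 0. Their summed level was 5175, 3561 and 5644 FPKM in creeping fat, against 817, 1770 and 1356 FPKM in control, so creeping fat 2 was the lowest of its group and control 2 the highest of its group, as for the members. The summed level of the members was 1.14, 1.27 and 1.10 times that of the macrophage markers in creeping fat, against 3.87, 2.32 and 2.47 times in control. This ratio of sums was lower in every creeping fat library than in any control, and it is set mostly by the most abundant genes. It does not hold for each member. The ratio of group means was 14.1 for Ctsk, 12.8 for Atp6v0d2, 4.25 for Ctss, 3.74 for Lgmn and 3.74 for Cd68. For the summed markers it was 3.65. Lyz2 alone had a mean of 3120 FPKM of the 4793 FPKM summed in creeping fat. Single macrophage markers had log2 fold changes from 0.16 to 2.20. Those of Ctss (2.19), Lgmn (1.94) and Cd68 (1.96) lay inside this range, and those of Ctsk (3.61) and Atp6v0d2 (2.70) above it. Ctsk and Atp6v0d2 lay inside the range of the fibroblast markers (0.95 to 5.14). They also lay inside that of the tested markers of osteoclasts and lipid-laden macrophages (0.90 to 5.68). All 8 fibroblast markers rose, with a summed level of 12327, 13086 and 9783 FPKM in creeping fat, against 1110, 915 and 1194 FPKM in control. This sum was highest in creeping fat 2 within creeping fat and lowest in control 2 within control. The called members Ctsk, Cd63 and Acp5 had the same highest and lowest libraries, though Acp5 fell. All 10 adipocyte markers fell (754 to 1675 FPKM in creeping fat and 3883 to 10796 FPKM in control), and none was at 0 in any library of either group. Neutrophil markers (7) summed to 42.9 to 127 FPKM in creeping fat and 10.2 to 40.8 FPKM in control, with 1 of 5 tested higher and 1 lower. The lower one, Elane, reached 1 FPKM only in the control libraries and so was tested only through them. Prostate markers (6) summed to 272 to 385 FPKM in creeping fat and 19.0 to 39.9 FPKM in control. The part of these cell types and glands in the results was not tested. In such bulk tissue, more cells of a type and more RNA per cell cannot be told apart.

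**Figure D4:**
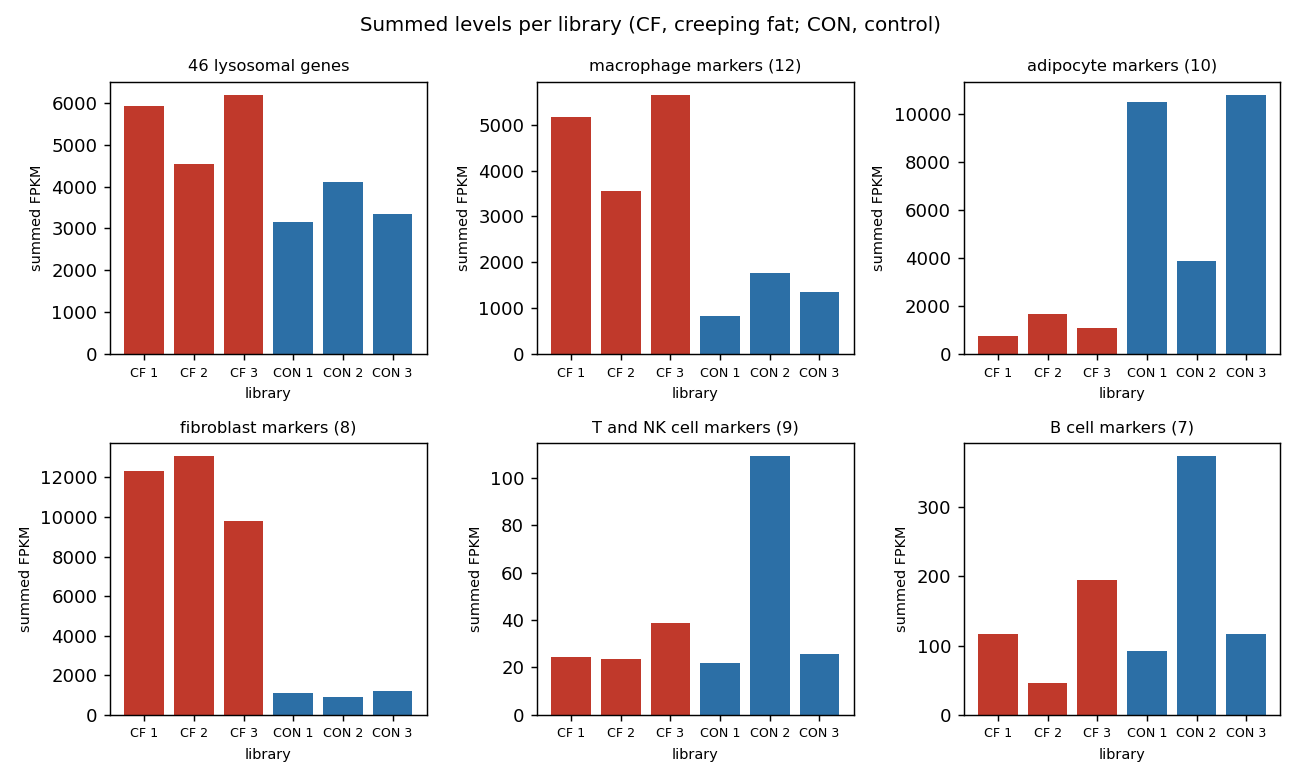
Summed FPKM per library of the 46 lysosomal genes and of 5 marker lists, with creeping fat in red left of control in blue and the number of markers in brackets. The sum of the lysosomal genes and that of the macrophage markers are lowest in creeping fat 2 within creeping fat and highest in control 2 within control.

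Of 10 cysteine cathepsins 6 rose, with Ctsk at their head, and 4 did not pass. The summed level was 1508 ± 256 FPKM in creeping fat and 679 ± 111 FPKM in control (SD, n = 3 each). Ctsk encodes cathepsin K, the collagen-degrading protease of osteoclasts, which macrophages and fibroblasts can also express. It had 87.3, 91.8 and 72.97 FPKM in creeping fat, against 5.80, 5.37 and 6.66 FPKM in control. Its fold change on the log2 scale was the largest of the members, 3.61 ± 0.15 (SE, adjusted p = 9.72e-05), higher than 99.7% of all genes tested, and it lay between 3.54 and 3.71 with 1 library left out. Ctss encodes cathepsin S, an elastin-degrading protease of antigen-presenting cells that trims the invariant chain of MHC class II. It measured 468, 248 and 501 FPKM in creeping fat, against 46.95, 162 and 77.3 FPKM in control, so control 2 was well above the other controls, and it rose by 2.19 ± 0.48 (SE, adjusted p = 0.0248). Both genes lie on chromosome 3 of GRCm38.p6, Ctsk from 95499210 to 95509387 and Ctss from 95526786 to 95556405, 17.4 kilobases apart with 1 other RefSeq gene between them.

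The other cysteine cathepsins had smaller fold changes than Ctsk and Ctss. Ctsh, an aminopeptidase, was at 136, 126 and 129 FPKM in creeping fat, against 40.8, 75.6 and 46.8 FPKM in control, and rose by 1.29 ± 0.24 (SE, adjusted p = 0.0141). Ctsl, a widely expressed endopeptidase, reached 154, 117 and 131 FPKM in creeping fat, against 73.04, 54.99 and 69.7 FPKM in control, and rose by 1.02 ± 0.18 (SE, adjusted p = 0.0125). In both genes the groups were apart. Ctsb, the most abundant of the cysteine cathepsins, acts as an endopeptidase and a carboxypeptidase. It had 524, 406 and 536 FPKM in creeping fat, against 269, 290.4 and 307 FPKM in control, and rose by 0.75 ± 0.18 (SE, adjusted p = 0.035). Ctsc, which activates the granule serine proteases of immune cells, measured 29.8, 26.03 and 20.4 FPKM in creeping fat, against 13.2, 14.1 and 15.1 FPKM in control, and rose by 0.79 ± 0.17 (SE, adjusted p = 0.0235). Ctsz, a carboxypeptidase, was at 212, 164 and 230.1 FPKM in creeping fat, against 89.5, 155 and 103 FPKM in control. Its groups were apart only narrowly, with creeping fat 2 next to control 2, and its difference of 0.82 ± 0.25 (SE, adjusted p = 0.07) did not pass. Ctsf, Ctso and Ctsw did not pass either. Ctsf differed by 0.47 ± 0.23 (SE, adjusted p = 0.216) and Ctso by -0.15 ± 0.16 (SE, adjusted p = 0.592). Ctsw, a cathepsin of cytotoxic T cells and NK cells, reached 2.57, 2.47 and 5.12 FPKM in creeping fat, against 2.85, 13.2 and 3.17 FPKM in control, and differed by -0.53 ± 0.52 (SE, adjusted p = 0.56). Its value in control 2 was several times that of the other controls, and the summed level of the 9 T and NK cell markers in the table was also highest there (23.5 to 38.8 FPKM summed in creeping fat and 21.6 to 109 FPKM in control, none at 0 in all libraries), with 0 of 5 tested called and 0 at an unadjusted p under 0.05. Limma gave 6 calls among the cysteine cathepsins, and with 1 library left out 1 (without creeping fat 1), 4 (without creeping fat 2), 2 (without creeping fat 3), 3 (without control 1), 7 (without control 2) and 2 (without control 3).

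Of the aspartic and serine cathepsins, Ctsa rose and the others did not pass. Ctsa, a serine carboxypeptidase that also protects beta-galactosidase and sialidase, had 75.1, 58.4 and 75.01 FPKM in creeping fat, against 30.2, 42.6 and 34.8 FPKM in control, and rose by 0.94 ± 0.19 (SE, adjusted p = 0.0172). It lost its call without creeping fat 1 (0.88, adjusted p = 0.0814), creeping fat 3 (0.88, adjusted p = 0.0767), control 1 (0.83, adjusted p = 0.0525) and control 3 (0.93, adjusted p = 0.0733). Ctsd, the main aspartic protease of the lysosome, measured 952, 659 and 972 FPKM in creeping fat, against 817, 638 and 703 FPKM in control. The groups overlapped, and the difference was 0.24 ± 0.23 (SE, adjusted p = 0.538). Ctsd did not pass under any of the 19 other settings either. Ctse, an aspartic protease of immune cells and gastric epithelium, was at 2.71, 3.23 and 5.06 FPKM in creeping fat, against 0.546, 3.34 and 0.815 FPKM in control, with control 2 among the creeping fat libraries. It met the expression filter through the creeping fat libraries and control 2, and differed by 0.99 ± 0.41 (SE, adjusted p = 0.157).

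Shares of the single cathepsins in their summed transcripts are given as a description, with no test. Ctsd had the highest level in all 6 libraries and Ctsb the next highest. Ctsd made up 35.6%, 34.1% and 35.8% of the summed FPKM of the 13 cathepsins in creeping fat, against 57.5%, 43.2% and 50% in control. The share of Ctss was 17.5%, 12.8% and 18.4% in creeping fat, against 3.30%, 10.96% and 5.50% in control. Ctsk held 3.26%, 4.75% and 2.69% in creeping fat, against 0.408%, 0.363% and 0.474% in control. None of these 3 shares overlapped between the groups. The share of Ctsb was 19.5% to 21.0% in creeping fat, inside its range of 19.0% to 21.8% in control. By level Ctsk was number 7 or 8 of 13 in creeping fat and number 11 or 12 in control.

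**Figure D5:**
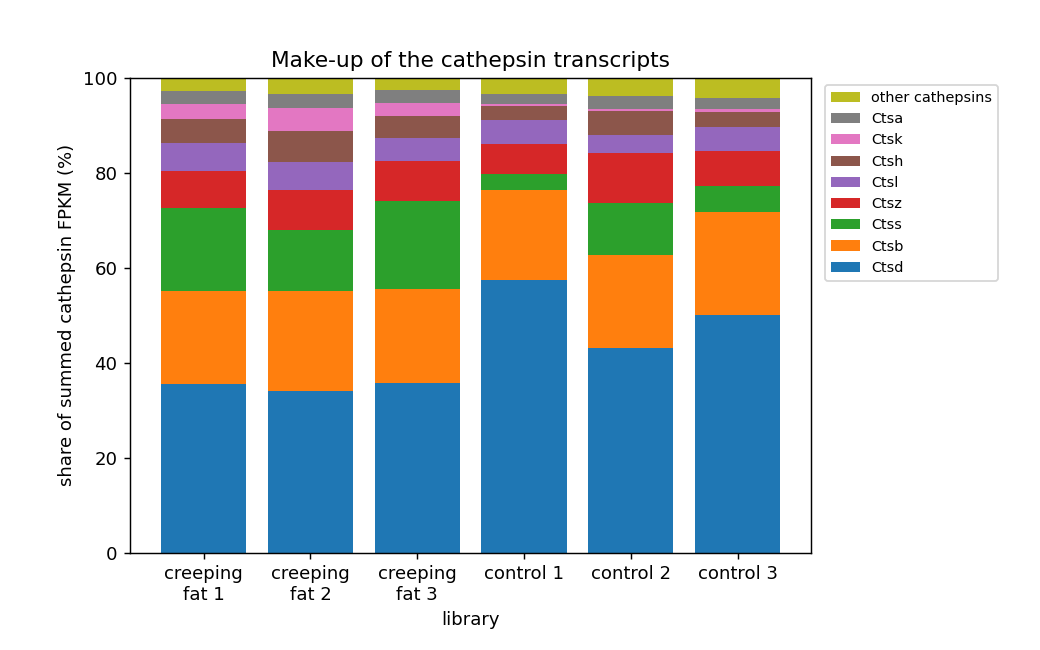
Share of each cathepsin in the summed FPKM of the 13 cathepsin genes, one bar per library, creeping fat left of control, with the 5 least abundant together. Ctsd makes up 34.1% to 35.8% in creeping fat and 43.2% to 57.5% in control, and Ctsk 2.69% to 4.75% in creeping fat and 0.363% to 0.474% in control.

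Of the other proteases Lgmn rose and Tpp1 did not pass. Lgmn encodes legumain, an asparaginyl endopeptidase that processes several cathepsins into their mature forms. It reached 203, 182 and 175 FPKM in creeping fat, against 34.5, 69.2 and 45.97 FPKM in control, with every creeping fat library above every control. Its rise was 1.94 ± 0.26 (SE, adjusted p = 0.00508), and it lay between 1.71 (without control 1) and 2.20 (without control 2) with 1 library left out. Tpp1, a tripeptidyl peptidase, had 46.1, 36.9 and 42.7 FPKM in creeping fat, against 33.6, 38.9 and 34.5 FPKM in control, and differed by 0.22 ± 0.15 (SE, adjusted p = 0.369). Control 2 lay above creeping fat 2 in Tpp1.

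Glycosidases were higher in creeping fat. All 9 genes had positive fold changes, from 0.40 to 1.14, and 7 of the 9 rose, and the summed level was 364 ± 37.3 FPKM in creeping fat and 194 ± 34.3 FPKM in control (SD, n = 3 each). Manba, the beta-mannosidase, measured 15.4, 13.3 and 14.8 FPKM in creeping fat, against 4.40, 7.97 and 6.12 FPKM in control, and rose by 1.14 ± 0.20 (SE, adjusted p = 0.0127). Gla, the alpha-galactosidase that removes the terminal sugar of globotriaosylceramide, was at 9.21, 5.14 and 8.13 FPKM in creeping fat, against 2.61, 3.93 and 3.18 FPKM in control, and rose by 0.98 ± 0.23 (SE, adjusted p = 0.0314). Hexa, the alpha subunit of beta-hexosaminidase, reached 130.3, 109.7 and 141 FPKM in creeping fat, against 52.4, 76.7 and 66.4 FPKM in control, and rose by 0.96 ± 0.19 (SE, adjusted p = 0.018). In each of these 3 genes creeping fat 2 was the lowest of its group and control 2 the highest of its group, and the groups were apart. Naglu, which acts on heparan sulfate, had 22.6, 17.8 and 23.6 FPKM in creeping fat, against 9.72, 12.3 and 10.5 FPKM in control, and rose by 0.91 ± 0.16 (SE, adjusted p = 0.0126). Glb1, the beta-galactosidase, measured 25.04, 28.00 and 25.8 FPKM in creeping fat, against 12.7, 14.5 and 13.9 FPKM in control, and rose by 0.89 ± 0.13 (SE, adjusted p = 0.00643). Glb1 had the smallest standard error of the called members, and it was called with each library left out. Gaa, which degrades glycogen, was at 86.98, 68.5 and 82.4 FPKM in creeping fat, against 45.7, 42.7 and 39.9 FPKM in control, and rose by 0.87 ± 0.15 (SE, adjusted p = 0.0114). Gusb, the beta-glucuronidase, reached 14.5, 13.6 and 14.7 FPKM in creeping fat, against 7.12, 9.64 and 8.62 FPKM in control, and rose by 0.70 ± 0.15 (SE, adjusted p = 0.0218). In Gaa and Gusb too the groups did not overlap. Man2b1, the alpha-mannosidase, had 58.9, 54.8 and 69.6 FPKM in creeping fat, against 23.1, 49.4 and 29.02 FPKM in control, and differed by 0.90 ± 0.28 (SE, adjusted p = 0.0754). Its control 2 value was close to creeping fat 2, and it passed without control 2 (1.20, adjusted p = 0.0022). The sialidase gene Neu1 differed by 0.40 ± 0.27 (SE, adjusted p = 0.368) and also passed without control 2 (0.69, adjusted p = 0.0111). The 7 calls became 1 (without creeping fat 1), 6 (without creeping fat 2), 1 (without creeping fat 3), 5 (without control 1), 9 (without control 2) and 1 (without control 3).

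Genes of lipid handling moved unequally. Of 8 genes 3 rose and 5 did not pass. Lipa, the acid lipase that releases cholesterol and fatty acids from lipoprotein lipid and lipid droplets, measured 71.3, 52.5 and 78.3 FPKM in creeping fat, against 24.3, 33.2 and 32.6 FPKM in control, and rose by 1.13 ± 0.21 (SE, adjusted p = 0.0135). Npc1 exports cholesterol from the lysosome through its membrane. It was at 21.9, 16.7 and 21.4 FPKM in creeping fat, against 8.49, 13.7 and 9.66 FPKM in control, and rose by 0.87 ± 0.21 (SE, adjusted p = 0.0322). Asah1, the acid ceramidase, reached 37.1, 28.5 and 29.5 FPKM in creeping fat, against 15.97, 21.5 and 21.1 FPKM in control, and rose by 0.68 ± 0.18 (SE, adjusted p = 0.0453). In these 3 genes every creeping fat library was above every control. Npc2, the soluble partner that hands cholesterol to the NPC1 protein, had 116, 108 and 129 FPKM in creeping fat, against 118, 93.9 and 123 FPKM in control, and differed by 0.09 ± 0.17 (SE, adjusted p = 0.786). Gm2a, the activator protein for ganglioside breakdown, measured 61.8, 58.5 and 74.5 FPKM in creeping fat, against 59.4, 65.7 and 65.2 FPKM in control, and differed by 0.03 ± 0.15 (SE, adjusted p = 0.931). Both overlapped between the groups and differed by at most 0.16 in either direction with 1 library left out, and their sign turned under some settings. Psap, the precursor of the saposins that aid sphingolipid hydrolases, had the highest mean level of all members. It was at 1115, 765 and 1346 FPKM in creeping fat, against 519.7, 1156 and 645 FPKM in control, and differed by 0.52 ± 0.36 (SE, adjusted p = 0.392). Psap was higher in control 2 than in creeping fat 1 and 2, and passed without control 2 (0.85, adjusted p = 0.0457). Smpd1, the acid sphingomyelinase, reached 22.7, 22.8 and 22.6 FPKM in creeping fat, against 36.1, 19.6 and 34.3 FPKM in control, and differed by -0.34 ± 0.24 (SE, adjusted p = 0.4). It was lower without control 2 (-0.61, adjusted p = 0.00607), and creeping fat lay between control 2 and the other controls. Ppt1, a thioesterase that removes palmitate from proteins, had 40.7, 35.5 and 40.5 FPKM in creeping fat, against 26.2, 64.4 and 36.2 FPKM in control, and differed by -0.02 ± 0.31 (SE, adjusted p = 0.974), with a positive sign under 6 other settings (0.32 without control 2, adjusted p = 0.168). Calls among the 8 numbered 0 without creeping fat 1 or creeping fat 3, where 3 were called with all libraries. They numbered 1 without creeping fat 2, control 1 or control 3, and 4 without control 2.

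Of the phosphatases, Acp5 fell. Acp5 encodes the tartrate-resistant acid phosphatase, a marker of osteoclasts that some macrophages also express. It measured 41.2, 51.6 and 32.00 FPKM in creeping fat, against 110.1, 62.5 and 78.2 FPKM in control, with every creeping fat library below every control, and its fold change was -0.98 ± 0.26 (SE, adjusted p = 0.0487). Among 19 other settings it was called in 9. It was not called without creeping fat 1 (-0.98, adjusted p = 0.147), creeping fat 2 (-1.14, adjusted p = 0.0651), creeping fat 3 (-0.81, adjusted p = 0.16), control 1 (-0.76, adjusted p = 0.113) or control 3 (-1.01, adjusted p = 0.134). Ctsk and Atp6v0d2, also known from osteoclasts, rose. Of 7 markers of osteoclasts and lipid-laden macrophages 5 passed the expression filter. Spp1, Mmp9, Trem2 and Mmp12 rose, and Dcstamp, also called, passed the filter only through the creeping fat libraries. The 7 had a summed level of 285 to 411 FPKM in creeping fat and 16.5 to 21.0 FPKM in control. Ocstamp and Calcr did not pass the filter. Ocstamp was at 0.452, 1.90 and 0.0934 FPKM in creeping fat, against 0.171, 0.311 and 0.247 FPKM in control. Calcr, the calcitonin receptor, used as an osteoclast marker, was at 0, 0 and 0.0312 FPKM in creeping fat, against 0.00659, 0 and 0.0472 FPKM in control. Acp2, the lysosomal acid phosphatase of most cells, differed by 0.29 ± 0.24 (SE, adjusted p = 0.485), and the groups overlapped.

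Of 9 membrane proteins 3 rose and 6 did not pass, and Atp6v0d2 and Cd68 had the largest fold changes. Atp6v0d2 encodes a subunit of the V-type ATPase found in osteoclasts and macrophages. It was at 14.6, 7.22 and 13.95 FPKM in creeping fat, against 0.620, 1.40 and 0.781 FPKM in control, and rose by 2.70 ± 0.29 (SE, adjusted p = 0.00276). In control 1 and control 3 it was under the 1 FPKM of the filter, so the added 1 shrinks this fold change. The ratio of the group means was 12.8 for Atp6v0d2 and 14.1 for Ctsk. Cd68, a heavily glycosylated membrane protein used as a macrophage marker, reached 169, 116 and 175 FPKM in creeping fat, against 23.9, 62.3 and 37.02 FPKM in control, and rose by 1.96 ± 0.35 (SE, adjusted p = 0.013). Cd63, a tetraspanin of late endosomes and exosomes, had 176, 189 and 179 FPKM in creeping fat, against 115, 75.6 and 90.8 FPKM in control, and rose by 0.96 ± 0.19 (SE, adjusted p = 0.0163). Cd68 was highest among controls in control 2, where Cd63 was lowest.

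The other 6 membrane proteins did not pass. Lamp1, which had the highest mean level of them, measured 308, 252 and 307 FPKM in creeping fat, against 257, 219 and 261 FPKM in control, and differed by 0.23 ± 0.17 (SE, adjusted p = 0.42). Lamp2, which also serves chaperone-mediated autophagy, was at 48.9, 42.02 and 42.3 FPKM in creeping fat, against 30.1, 22.6 and 33.3 FPKM in control, and differed by 0.63 ± 0.18 (SE, adjusted p = 0.0583). Scarb2, which carries glucocerebrosidase to the lysosome, reached 85.2, 78.6 and 67.9 FPKM in creeping fat, against 43.8, 55.1 and 56.2 FPKM in control, and differed by 0.57 ± 0.17 (SE, adjusted p = 0.0618). Lamp2 and Scarb2 did not overlap between the groups, and both passed without control 2 (0.47, adjusted p = 0.0289, and 0.62, adjusted p = 0.0258). Atp6v1a, the catalytic subunit of the proton pump that most cells express, had 34.9, 28.4 and 32.7 FPKM in creeping fat, against 23.8, 17.2 and 24.3 FPKM in control, and differed by 0.55 ± 0.18 (SE, adjusted p = 0.0855), without overlap of the groups. Laptm5, a lysosomal protein of blood cells, measured 184, 146 and 195 FPKM in creeping fat, against 47.5, 227 and 82.2 FPKM in control, and differed by 0.84 ± 0.53 (SE, adjusted p = 0.34). Its highest value was in control 2, and it passed without that library (1.46, adjusted p = 0.00554). The summed level of the 7 B cell markers was also highest in control 2 (45.7 to 194 FPKM summed in creeping fat and 92.5 to 374 FPKM in control, none at 0 in all libraries), and limma called 0 of them, and 0 at an unadjusted p under 0.05. Mcoln1, the calcium channel of the lysosomal membrane, differed by -0.17 ± 0.18 (SE, adjusted p = 0.588). With 1 library left out the 3 calls among membrane proteins became 1 (without creeping fat 1), 2 (without creeping fat 2), 1 (without creeping fat 3), 3 (without control 1), 6 (without control 2) and 1 (without control 3).

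None of the 3 transcription factors of the TFEB family passed with all libraries in limma. An unadjusted p under 0.05 was found for 2, both with higher levels in creeping fat. At that threshold 2184 of all 12812 genes tested were higher and 1759 lower. Tfeb was at 4.61, 3.13 and 5.86 FPKM in creeping fat, against 3.64, 10.99 and 2.90 FPKM in control, and differed by -0.15 ± 0.44 (SE, adjusted p = 0.867). Its control 2 value was the highest of the 6, and its sign turned without that library (0.35, adjusted p = 0.263) and without creeping fat 2 (0.05, adjusted p = 0.973). Tfe3 reached 19.96, 18.9 and 21.6 FPKM in creeping fat, against 15.2, 16.9 and 13.2 FPKM in control, and differed by 0.40 ± 0.14 (SE, adjusted p = 0.111). Mitf had 6.22, 4.89 and 6.65 FPKM in creeping fat, against 2.27, 4.26 and 3.33 FPKM in control, and differed by 0.71 ± 0.21 (SE, adjusted p = 0.0687). The groups did not overlap in Tfe3 and Mitf, and both passed without control 2 (0.48, adjusted p = 0.025, and 0.87, adjusted p = 0.0109). Mitf is also the master factor of pigment cells, and the 5 melanocyte markers summed to 0.604 to 2.19 FPKM in creeping fat and 1.29 to 3.29 FPKM in control, with Tyrp1 at 0 in all 6 libraries. At the RNA level Tfe3 was the most abundant of the 3 factors in every library. The activity of these factors is set largely by their entry into the nucleus, which these data do not measure.

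Lists of further hydrolases, membrane transporters, V-type ATPase subunits, sorting proteins, cathepsin inhibitors, regulators of TFEB and autophagy genes, all outside the 46, held 162 symbols, of which 158 were in the table and 146 were tested. Of these 14 rose, or 9.59%, near the 9.35% of all genes tested, and 6 fell, or 4.11%, against 6.81% of all genes tested. Their median fold change was 0.09, and whether it differs from that of the members was not tested. Without control 2 the counts were 45 higher and 12 lower, and without creeping fat 1 they were 3 and 2.

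Of 35 further hydrolases 6 rose, or 17.1%, and none fell in limma (median 0.37), where 9.35% of all genes tested rose. Pld3, a lysosomal nuclease of the phospholipase D family, rose by 1.45 ± 0.29 (SE, adjusted p = 0.0177), Scpep1, a serine carboxypeptidase, by 0.94 ± 0.17 (SE, adjusted p = 0.0122) and Galns, a sulfatase that acts on keratan sulfate, by 0.93 ± 0.16 (SE, adjusted p = 0.0105). At an unadjusted p under 0.05 the further hydrolases had 11 higher and 0 lower, where 2184 of all 12812 genes tested were higher and 1759 lower. The 6 calls became 0 without creeping fat 1, creeping fat 3 or control 3, 3 without creeping fat 2 and 2 without control 1. They became 16 without control 2, where the count over all genes tested also grew, from 1198 to 2896. Of 28 tested transporters and other membrane proteins (median 0.27) 2 rose (7.14%) and 3 fell (10.7%), where 9.35% and 6.81% of all genes tested did so. Gpnmb, a glycoprotein of lipid-laden macrophages, rose by 3.28 ± 0.55 (SE, adjusted p = 0.0105) and Litaf by 0.59 ± 0.15 (SE, adjusted p = 0.0419), and Mfsd8, Abcb9 and Abca2 had fold changes of -1.27 ± 0.23 (SE, adjusted p = 0.0137), -1.07 ± 0.15 (SE, adjusted p = 0.00556) and -0.73 ± 0.13 (SE, adjusted p = 0.0121).

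Of 17 other subunits and accessory genes of the proton pump (median 0.09) 1 rose and 1 fell, 5.88% each. Of all genes tested 9.35% rose and 6.81% fell. Atp6v0c rose by 0.68 ± 0.13 (SE, adjusted p = 0.0146), and Atp6v0e2 fell, with -1.38 ± 0.32 (SE, adjusted p = 0.0287). No gene of this list rose without creeping fat 1, creeping fat 2, creeping fat 3 or control 3, and 3 rose without control 2. Of 20 sorting genes (median -0.03) 2 rose (10%) and 1 fell (5%), near the 9.35% and 6.81% of all genes tested. Igf2r, the mannose 6-phosphate receptor that also binds IGF2, measured 50.3, 45.4 and 51.5 FPKM in creeping fat, against 21.6, 18.8 and 20.8 FPKM in control, and rose by 1.23 ± 0.13 (SE, adjusted p = 0.00277). Rab7b rose by 0.84 ± 0.20 (SE, adjusted p = 0.0338). Sort1, which encodes sortilin, was at 23.5, 31.8 and 29.3 FPKM in creeping fat, against 92.3, 49.5 and 104 FPKM in control, and its fold change was -1.45 ± 0.29 (SE, adjusted p = 0.019). The groups were apart in both receptors, in opposite directions.

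Cathepsin inhibitors were measured beside their targets. Of 12 genes found, 4 were tested, and Cstb rose. Cstb encodes cystatin B, the intracellular inhibitor of cysteine cathepsins. It reached 106, 95.8 and 112 FPKM in creeping fat, against 46.3, 49.96 and 47.5 FPKM in control, and rose by 1.11 ± 0.13 (SE, adjusted p = 0.00392). Cst3, the abundant secreted cystatin C, had 411, 373 and 458 FPKM in creeping fat, against 435, 418 and 417 FPKM in control, and differed by -0.04 ± 0.16 (SE, adjusted p = 0.915), with overlap of the groups.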

How the data were processed

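RNA was sequenced from 3 samples of creeping fat and 3 of healthy mesenteric fat. The authors deposited 1 table of FPKM per gene and library, with 1 column per library and no replicates pooled. Per the labels' protocols, libraries were made from ribosomal RNA depleted total RNA with a stranded kit, and per the submitters' processing notes the genome build was mm10. The aligner, counter, annotation and strand setting are not given in the sources used here. Whether overlapping antisense transcripts were told apart is therefore not known, and reads shared between near-identical genes may have been split.

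Log2(FPKM + 1) of 12812 genes that reached 1 FPKM in 3 or more of 6 libraries was fitted with limma 3.58.1 in R 4.3.3 (eBayes with trend, two-sided), with Benjamini-Hochberg adjustment over all of them and calls at an adjusted p under 0.05. Exact permutation tests were left out, since 3 samples against 3 allow no p below 0.1. Whole reads were recovered from the FPKM steps (100% of 18714 genes, within 0.002 reads) for a voom fit with TMM scaling. Recovery and fit were tested on simulated data. Alternatives changed the pseudocount, filter, scaling, variance model, replicate block and libraries.

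The members and all lists were chosen with earlier results of these data known. Values in every library are given for each member that passed, for those not passing with a mean of at least 20 FPKM and for the transcription factors. Of each further list up to 3 called genes per direction are named. Per-library values of Ctsw and Ctse, and the genes Cst3, Sqstm1, Calcr, Ocstamp and Elane, were added after their values were seen. Promoter windows and gene positions came from RefSeq (GRCm38.p6).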

Additional observations from a re-analysis of the deposited data

How the results depend on the processing

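Among 19 alternative settings the median fold change of the members lay between 0.57 and 0.85 on the log2 scale, and no called member changed its sign, while counts of calls moved with the weighting and the libraries. With all libraries 1198 genes were higher and 872 lower, 21 and 1 of the members, and 14 and 6 of the other lysosomal genes. Array weights, whose estimation did not fully converge, gave 4216 genes higher and 3339 lower, 35 and 3 members, and 58 and 33 other lysosomal genes. Without both creeping fat 2 and control 2 there were 2713 and 1731 genes, 33 and 2 members, and 42 and 10 other lysosomal genes. With 1 library left out the counts ranged over 576 to 2896 genes higher and 287 to 1857 lower, 4 to 31 members higher and 0 to 2 lower, and 3 to 45 other lysosomal genes higher and 2 to 12 lower. Leaving out a library leaves fewer samples; beyond that the cause was not tested. No member was lower with a pseudocount of 5, with no filter on low values, with the median log2 ratio of each library set to 0 or with voom (0 in each, where limma as reported called 1, and gave 1 at an unadjusted p under 0.05). Voom on the recovered reads called 1137 genes higher and 770 lower. The median of all genes tested was -0.026 with quantile normalization, -0.031 with the median ratio set to 0 and with voom, -0.064 without control 1 and 0.13 without control 2, so fold changes without control 2 carry that shift.

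The replicate numbers were tried as a block. The replicate block gave 636 genes higher and 378 lower, 7 and 0 members, and 3 and 4 other lysosomal genes. Deviations of same-numbered samples from their group means correlated at -0.18, -0.18 and -0.08 for numbers 1, 2 and 3. No sample correlated best with its own number. Deviations from a group mean depend on each other within the group, so these values cannot decide whether samples were paired. The labels do not tie samples to animals.

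Sign changes occurred in 6 members that did not pass. Gm2a was -0.027 with quantile normalization, -0.030 with voom, -0.021 with the median ratio set to 0 and -0.0051 with array weights, and lay between -0.074 (without creeping fat 3) and 0.098 (without creeping fat 2) with 1 library left out. Ppt1 was 0.0029 with libraries rescaled to the same total, 0.00076 with that total taken without gland and pancreas genes, 0.11 with array weights and 0.39 without both libraries, and ranged over -0.31 (without control 1) to 0.32 (without control 2). Ctsw was 0.026 with array weights and 0.22 without both, and ranged over -0.86 (without control 1) to 0.078 (without control 2). Npc2 was -0.052 with array weights and ranged over -0.031 (without control 2) to 0.16 (without control 3). Mcoln1 was 0.026 without both and ranged over -0.28 (without control 1) to 0.0030 (without control 2). Tfeb was 0.48 with array weights (limma, adjusted p = 0.0432) and 0.55 without both, and ranged over -0.46 (without control 3) to 0.35 (without control 2).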

Other observations

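Genes that regulate TFEB and genes of autophagy, which delivers cargo to the lysosome, had medians of -0.02 and 0.01 on the log2 scale, against 0.02 over all genes tested. Of 19 tested regulators of TFEB 1 rose (5.26%) and 0 fell, where 9.35% of all genes tested rose and 6.81% fell. The gene that rose was Fnip1, a folliculin partner in nutrient sensing. It measured 10.1, 10.8 and 11.6 FPKM in creeping fat, against 6.68, 8.26 and 6.92 FPKM in control. Its rise was 0.52 ± 0.14 (SE, adjusted p = 0.0481) (limma). Of this list 0 genes rose with 1 library other than control 2 left out, and 4 rose without control 2. Of 23 autophagy genes 1 rose and 1 fell, 4.35% each. Wipi1, which binds the membrane of the forming autophagosome, was at 36.99, 40.6 and 38.6 FPKM in creeping fat, against 22.1, 14.01 and 21.6 FPKM in control, and rose by 1.00 ± 0.20 (SE, adjusted p = 0.0171). Optn, a receptor that brings damaged mitochondria to the autophagosome, reached 3.28, 4.11 and 4.66 FPKM in creeping fat, against 10.01, 9.02 and 10.6 FPKM in control, and its fold change was -1.12 ± 0.16 (SE, adjusted p = 0.00576). In both genes the groups did not overlap. Sqstm1, the autophagy receptor also called p62, differed by 0.13 ± 0.16 (SE, adjusted p = 0.664).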
